A study of Mus musculus with 6 samples.

Results

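The 10 genes described here are the astroglial transcription factors Sox9, Sox2, Nfia, Nfib, Pax6, Lhx2 and Zbtb20, the Notch receptor gene Notch1, and Hes1 and Hes5, which Notch signaling switches on. They were picked by gene symbol from a table of 55357 mouse genes, and all 10 were found in it. RNA-seq had been performed on primary cortical astrocytes prepared from C57BL/6 mouse embryos at embryonic day 18. In 3 cultures the cells had been transfected with a plasmid carrying FLAG-tagged BRAF KE behind the CMV promoter, which is active in most cell types (KE). The other 3 cultures were nontransfected (NT), and RNA was taken 48 hours after transfection. BRAF KE is a kinase variant of the RASopathies, and the comparison asks how its expression alters transcription in astrocytes. No culture given an empty plasmid or BRAF WT is among those analysed here, so effects of the transfection and of BRAF KE cannot be told apart. Cultures are numbered 1 to 3 in each group. Nothing states that they came from separate preparations, so the p-values measure the spread between these samples, which may be technical.

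In Notch signaling, a ligand on a neighboring cell triggers cleavage of the receptor, and the freed intracellular part joins the DNA-binding protein RBPJ to turn on genes such as Hes1 and Hes5. The HES proteins repress neuronal genes and keep neural progenitors undifferentiated. SOX9 and the nuclear factor I proteins NFIA and NFIB are known for starting the astrocyte program in the developing brain, and SOX2, PAX6 and LHX2 are known from the radial glia that astrocytes arise from.

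The library labels were checked first on Braf, which ranged from 34933 to 40978 normalized counts with the plasmid and from 811 to 946 without it. The sequencing depth, approximated from the commonest low value in each culture taken as 1 read, was 24500000 to 34100000 reads, lowest in KE replicate 2. The 10 astrocyte markers summed to 191555 to 197434 normalized counts in KE and 140191 to 148961 in NT, with 6 higher and 2 (Gja1 and Fgfr3) lower in KE. Aqp4 was not called, nor was S100b, the only low one of the list at 11.8 to 31.5 normalized counts. The 14 markers of microglia and macrophages summed to 3725 to 5659 in KE and to 39448 to 47069 in NT, and each of the 14 was lower in KE without overlap. The 6 proliferation markers also were all lower in KE, with sums of 27912 to 29770 against 62381 to 65128. The oligodendrocyte lineage list summed to 29774 to 34856 in KE and 38109 to 38381 in NT, with 7 of 8 tested markers lower and 1 higher. Smaller sums were found for the neuron list (1638 to 1941 in KE, 1474 to 1587 in NT) and the vascular and mesenchymal list (2238 to 2306 in KE, 3003 to 4074 in NT). The defining markers Mog, Rbfox3, Slc17a7, Cldn5 and Cdh5 were too low to be tested, and none was at 0 in all 6 cultures. In bulk RNA, fewer cells of a type and less RNA per cell cannot be told apart. The part that these differences in marker level play in the values below was not tested.

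**Figure D1:**
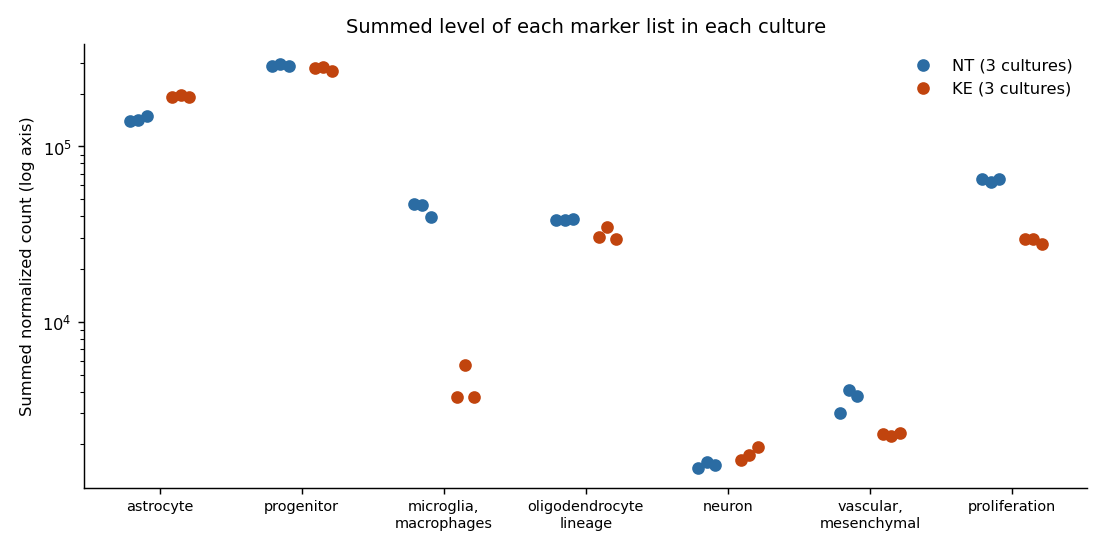
Summed normalized count of each marker list (log axis) in the 3 NT and 3 KE cultures, each point being 1 culture. The microglia and macrophage sums lie between 3725 and 5659 in KE and between 39448 and 47069 in NT, whereas the astrocyte sums are higher in KE.

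Hes5 is the member with the largest difference and is a direct target of RBPJ, so its upstream sequence is shown to give the context of that difference. The run below lies on the plus strand at chr4:155045130-155045329 (GRCm39), upstream of the first exon of Hes5, and was taken from the RefSeq promoter table (GRCm38.p6), whose window was found unaltered in GRCm39. Capitals mark the RBPJ core motif TGGGAA, or its reverse complement TTCCCA.
Hes5: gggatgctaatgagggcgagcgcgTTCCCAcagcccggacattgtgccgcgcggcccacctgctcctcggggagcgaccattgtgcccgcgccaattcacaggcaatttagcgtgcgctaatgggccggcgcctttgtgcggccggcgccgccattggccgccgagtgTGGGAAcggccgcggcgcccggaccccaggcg

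The leftmost bases of the matches lie at -226, read on the minus strand, and at -82, read on the plus strand, counted from the RefSeq start of the gene. Both also fit the longer form GTGGGAA, which contains TGGGAA. Of 32851 RefSeq promoter windows of 300 bases searched on both strands, 25.6% held TGGGAA at least once and 3.79% held 2 or more, while GTGGGAA was found in 6.4% and 2 or more times in 0.26%. RefSeq windows were found for 7 of the 10 members. TGGGAA stood once in each of 2 windows of Lhx2, at -230 and -9, and once in that of Zbtb20, at -173. No match was present in the windows of Notch1, Pax6, Sox2 and Nfia. RefSeq starts need not be the gene starts given below. The Nfia window (chr4:97469930-97470229) lies upstream of and apart from the coordinates given for that gene. The windows of Notch1 (chr2:26393785-26394084) and Zbtb20 (chr16:43067397-43067696) lie inside those given for these genes. The matches above describe letters in a window and were not tested as binding sites.

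Among the 10 members, 9 differed between KE and NT cultures in limma's test on log2(normalized count + 1), at an adjusted p under 0.05 (Benjamini-Hochberg over all 15280 tested genes). Such calls were common in this comparison, since 51.3% of all tested genes were called. Of the members, 4 (Sox9, Sox2, Lhx2 and Hes1) were higher in KE, beside 25.3% of all genes, and 5 (Nfia, Nfib, Zbtb20, Notch1 and Hes5) were lower, beside 26.0% of all genes. The KE and NT values of 8 members did not overlap, as did not those of 59.9% of all genes. The median log2 fold change (log2FC) was -0.03 for the members and 0.002 for all tested genes, and the called members had a median absolute log2FC of 0.395 where all called genes had 0.505. The set therefore split in direction, and most of its differences were modest in size.

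**Figure D2:**
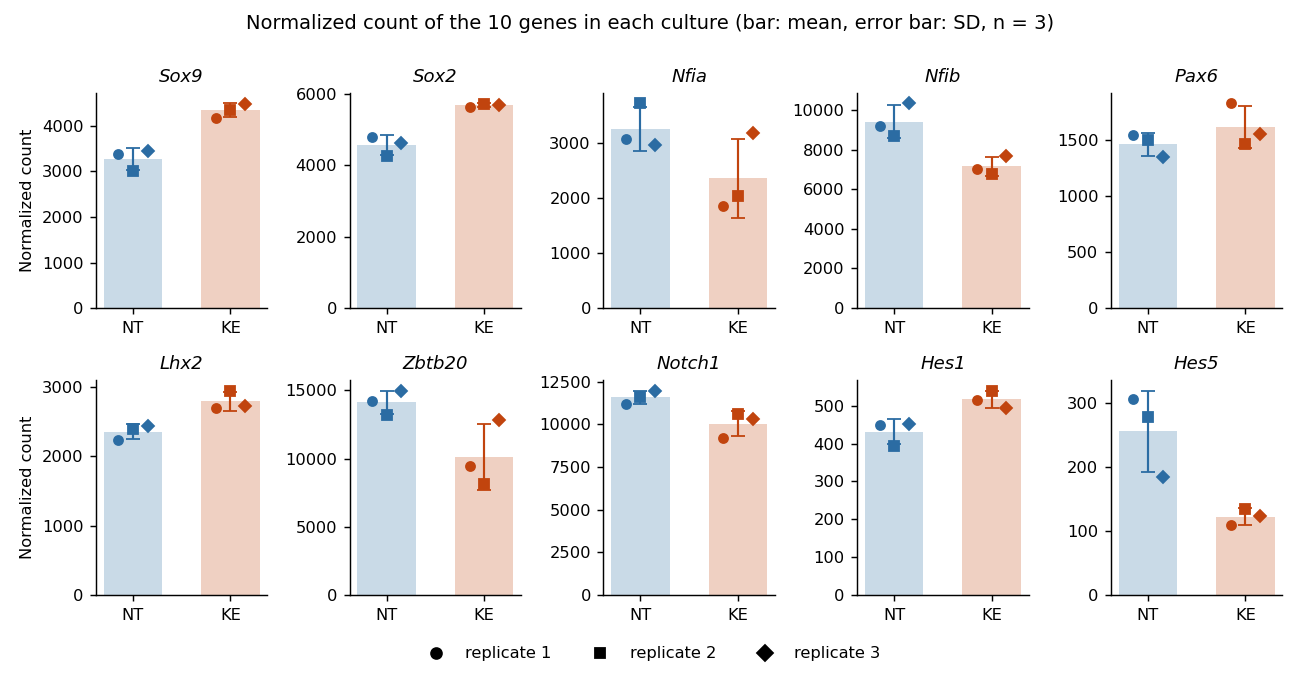
Normalized count of each of the 10 genes in the 3 NT and 3 KE cultures, with symbols for the replicate number, bars for the mean and error bars for the SD. The groups overlap for Nfia and Pax6 only, and Hes5 falls from a mean of 256 in NT to 123 in KE.

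Hes5 encodes a basic helix-loop-helix repressor (ENSMUSG00000048001, chr4:155045373-155046828, plus strand). Its normalized count was 109, 135 and 124 in KE replicates 1, 2 and 3 and 305, 278 and 184 in NT replicates 1, 2 and 3. All KE values were below all NT values, although NT replicate 3 stood well below the other NT cultures. The mean fell by 52.1% in KE, with a log2FC of -1.03 (SE 0.19, 95% CI -1.44 to -0.62, adjusted p = 0.00084 by limma with Benjamini-Hochberg). NT replicate 3 also had the lowest summed microglia and macrophage marker level of the NT cultures (39448 against 46650 and 47069). Without that culture the log2FC of Hes5 was -1.25.

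Hes1 encodes a related repressor of neurogenesis (ENSMUSG00000022528, chr16:29882134-29886643, plus strand) and differed in the opposite direction. It was measured at 514, 540 and 495 normalized counts in KE and at 449, 393 and 452 in NT. The groups were separate by a narrow margin. The log2FC was 0.26 (SE 0.09, 95% CI 0.06 to 0.46, adjusted p = 0.034 by limma), and the call was lost without KE replicate 1, KE replicate 2 or NT replicate 2, with adjusted p-values of 0.080, 0.093 and 0.12. The ratio of Hes5 to Hes1 within a culture, which does not depend on scaling between cultures, was 0.211, 0.25 and 0.25 in KE and 0.681, 0.706 and 0.407 in NT. Every KE ratio was below every NT ratio, with a difference of -1.29 on the log2 scale (exact permutation p = 0.1, two-sided, the smallest that 3 against 3 allows, and 0.3 after Benjamini-Hochberg adjustment over the 3 ratios tested).

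Notch1 encodes the receptor itself (ENSMUSG00000026923, chr2:26347915-26406675, minus strand). Its normalized count was 9237, 10593 and 10327 in KE and 11197, 11608 and 11985 in NT, so that the groups did not overlap. The log2FC was -0.21 (SE 0.06, 95% CI -0.35 to -0.07, adjusted p = 0.018 by limma). The call was lost without KE replicate 1 (adjusted p = 0.081) or NT replicate 3 (adjusted p = 0.063). The opposite-strand transcript 0610009E02Rik, which shares 1996 exonic bases with Notch1, averaged 19.3 normalized counts in KE and 8.69 in NT, far fewer than Notch1 itself. The libraries were made with a stranded kit, but the strand setting of the counting is not given in the sources used here.

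Sox9 encodes a factor required for the onset of gliogenesis (ENSMUSG00000000567, chr11:112673009-112678586, plus strand). Its normalized count was 4178, 4355 and 4481 in KE and 3373, 3004 and 3442 in NT, with every KE culture above every NT culture. The log2FC was 0.41 (SE 0.07, 95% CI 0.27 to 0.55, adjusted p = 0.00035 by limma), the largest rise among the members.

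Sox2, a factor of neural stem cells that astrocytes keep expressing (ENSMUSG00000074637, chr3:34704554-34706610, plus strand), had normalized counts of 5626, 5717 and 5682 in KE and 4791, 4264 and 4628 in NT. These groups also did not overlap, and the KE cultures lay close together. The log2FC was 0.32 (SE 0.06, 95% CI 0.19 to 0.45, adjusted p = 0.00089 by limma). The long noncoding gene Sox2ot, in whose intron Sox2 lies on the same strand with no shared exonic bases, moved the other way. It measured 812, 829 and 842 in KE and 1107, 1059 and 1113 in NT (log2FC -0.40, adjusted p = 0.00046 by limma). The ratio of Sox9 to Sox2 was 0.743, 0.762 and 0.789 in KE and 0.704, 0.704 and 0.744 in NT, a log2 difference of 0.09 (exact permutation p = 0.2, adjusted over the 3 ratios 0.3).

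Lhx2, a LIM homeobox factor of cortical progenitors (ENSMUSG00000000247, chr2:38229293-38259759, plus strand), had normalized counts of 2701, 2946 and 2717 in KE and 2236, 2398 and 2431 in NT. The groups were separate, and the log2FC was 0.24 (SE 0.06, 95% CI 0.11 to 0.38, adjusted p = 0.0071 by limma). Pax6, a paired-box factor of dorsal radial glia (ENSMUSG00000027168, chr2:105499234-105530952, plus strand), measured 1831, 1466 and 1561 in KE and 1545, 1506 and 1349 in NT. Here the groups overlapped, and the difference did not pass the test (log2FC 0.14, 95% CI -0.06 to 0.34, adjusted p = 0.22 by limma). That log2FC was 0.05 without KE replicate 1 and 0.21 without KE replicate 2, and was called in neither case. Elp4, the opposite-strand neighbor of Pax6, shares 3393 exonic bases with Pax6 and gave a log2FC of 0.06 (adjusted p = 0.61 by limma).

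The astrocyte markers summed to 1.35 times the NT level in KE, a sum to which the abundant Slc1a3, Glul and Gfap contribute most. When each culture was instead scaled to the geometric mean of these markers, a choice made after the data were seen, the median log2FC of all genes became -0.22. The log2FC of Sox9 was then 0.19 (adjusted p = 0.049 by limma), whereas those of Sox2, Lhx2 and Hes1 were 0.10, 0.02 and 0.04 and were no longer called, and that of Pax6 was -0.08. Gfap and Slc1a3, which help set this scale, are among the genes given below as targets of SOX9, NFIA or RBPJ. The scaling moved the log2FC of all genes down by nearly the same amount. The falls of the other members were therefore larger by construction, and these members stayed called. Their log2FC were -0.43 for Notch1, -0.72 for Nfia and for Zbtb20, -0.62 for Nfib and -1.25 for Hes5. The rises of Sox2, Lhx2 and Hes1 thus passed the test with the deposited normalization and did not pass it on the scale of the astrocyte markers.

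The nuclear factor I genes moved in the opposite direction to the SOX pair. Nfib (ENSMUSG00000008575, chr4:82208410-82623987, minus strand) measured 7026, 6757 and 7688 normalized counts in KE and 9216, 8706 and 10340 in NT. All KE values were below the NT values, and the log2FC was -0.395 (SE 0.07, 95% CI -0.56 to -0.23, adjusted p = 0.001 by limma). Nfia (ENSMUSG00000028565, chr4:97660971-98007111, plus strand) measured 1847, 2037 and 3169 in KE and 3068, 3707 and 2957 in NT. KE replicate 3 lay within the range of the NT cultures, so the groups overlapped.

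The log2FC of Nfia was -0.50 with a wide error (SE 0.17, 95% CI -0.86 to -0.13, adjusted p = 0.027 by limma). It was -0.73 without KE replicate 3, and the call was lost without KE replicate 1 (adjusted p = 0.12), KE replicate 2 (0.10) or NT replicate 2 (0.091). The ratio of Nfib to Nfia, at 3.80, 3.32 and 2.43 in KE and 3.00, 2.35 and 3.50 in NT, did not separate the groups (log2 difference 0.10, exact permutation p = 0.7, also after adjustment). The opposite-strand transcript E130114P18Rik, which shares 4 exonic bases with Nfia, was lower in KE (log2FC -0.72, adjusted p = 0.00012 by limma), as was Gm11266, which lies opposite Nfib without shared exonic bases (log2FC -0.64, adjusted p = 0.0077 by limma).

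Zbtb20, a zinc finger repressor that promotes astrocyte production in the cortex (ENSMUSG00000022708, chr16:42696093-43462965, plus strand), measured 9440, 8141 and 12833 normalized counts in KE and 14201, 13217 and 14957 in NT. The groups did not overlap, but KE replicate 3 came close to the lowest NT culture. The log2FC was -0.50 (SE 0.13, 95% CI -0.79 to -0.21, adjusted p = 0.0079 by limma). KE replicate 3 thus stood above the other KE cultures for both Nfia and Zbtb20, by 0.47 and 0.37 from the group mean on the log2 scale, and no more than 0.11 from it for the other 8 members.

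**Figure D3:**
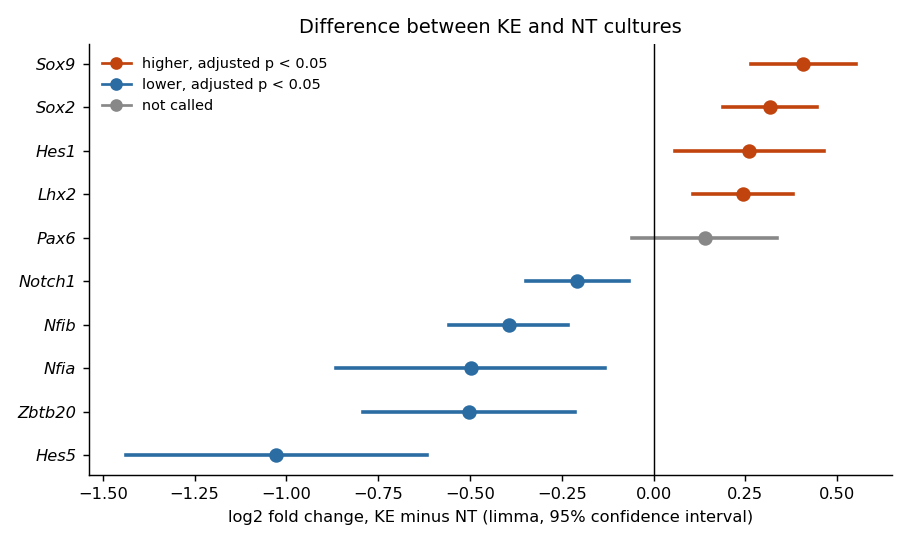
Log2 fold change of each member, KE minus NT, with the 95% confidence interval from limma and color for the call at an adjusted p under 0.05. Sox9, Sox2, Hes1 and Lhx2 lie above 0, Pax6 spans 0, and Hes5 has the lowest estimate at -1.03.

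Per kb of the canonical transcript, Sox2 had the highest level of the set in NT (2217 ± 131 normalized counts per kb, SD, n = 3). It was followed by Notch1 (1222 ± 41.6), Nfib (1019 ± 90.5), Lhx2 (825 ± 36.6), Sox9 (784 ± 56.4) and Zbtb20 (525 ± 32.4). The lowest were Nfia (339 ± 42.3), Hes1 (282 ± 21.5), Pax6 (252 ± 17.9) and Hes5 (200 ± 49.7). Neighbors in this order whose values overlapped between cultures were Lhx2 and Sox9, Hes1 and Pax6, and Pax6 and Hes5.

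In KE, Sox2 was again first (2759 ± 22.3) and Hes5 last (95.7 ± 10.2). Sox9 reached 1039 ± 36.4 per kb and could not be separated from Notch1 (1059 ± 75.7) or Lhx2 (977 ± 47.9), while Nfib stood below them at 775 ± 51.9. Zbtb20 overlapped Hes1, and Pax6 overlapped Nfia. Per kb of canonical transcript, the order of Sox9 and Nfib was therefore opposite in the groups, without overlap in either. This order depends on the length chosen, as the exons of Nfib together cover 16395 bases and its canonical transcript has 9241. Before division by length, Nfib had the higher mean normalized count in both groups (7157 against 4338 in KE, 9420 against 3273 in NT).

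**Figure D4:**
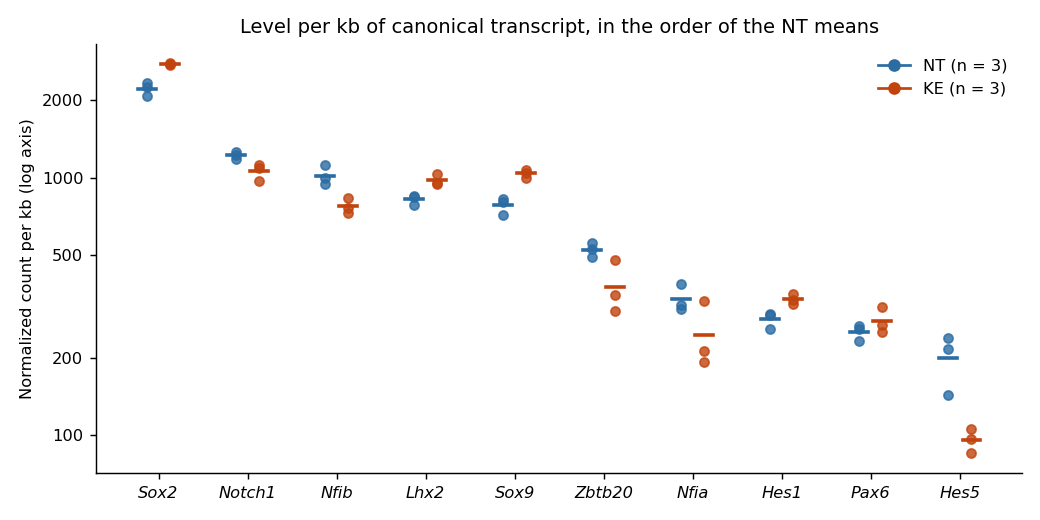
Normalized count per kb of canonical transcript (log axis) for the 10 genes in each culture, in the order of the NT means, with horizontal lines for group means. Sox9 lies below Nfib in the NT cultures and above it in the KE cultures.

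Of 38 genes of the Notch pathway, 37 were tested, and 6 were higher and 13 lower in KE, with a median log2FC of -0.03 and no overlap between groups for 20. Of all tested genes 25.3% were higher, 26.0% lower and 59.9% without overlap, so the total of 19 called lay near the background of 51.3%, with fewer rises and more falls. Whether that split differs from the background was not tested. Heyl was too low to be tested. The members Notch1, Hes1 and Hes5 are counted among them. Among 5 ligands, Jag1 rose from 2270 ± 81.4 normalized counts in NT to 3192 ± 146 in KE (SD, n = 3, log2FC 0.49, adjusted p = 5e-05 by limma), and Dll3, which acts inside the cell against Notch, fell from 225 ± 15.9 to 139 ± 26.0 (log2FC -0.70, adjusted p = 0.003). Dll1, another activating ligand, gave a log2FC of -0.05 and was not called.

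Of 4 receptors, Notch2 was lower like Notch1 (log2FC -0.23, adjusted p = 0.02 by limma), and Notch3 and Notch4 did not pass the test (log2FC 0.05 and 0.45). Among 8 proteases and secretase subunits that cut the receptor, Ncstn was higher (log2FC 0.33) and the sheddase genes Adam10 and Adam17 were lower (log2FC -0.33 and -0.15), while the other 5 were not called. Among 9 modifiers, the largest differences in the pathway were those of Lfng and Mfng, which encode Fringe sugar transferases that tune the receptor's choice of ligand. Lfng measured 898, 882 and 870 normalized counts in KE and 2169, 2542 and 2336 in NT (log2FC -1.41, adjusted p = 6.8e-08 by limma).

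Mfng measured 40.6, 47.8 and 58.6 in KE and 136, 137 and 120 in NT (log2FC -1.41, adjusted p = 8.3e-05 by limma). The third Fringe gene, Rfng, gave a log2FC of -0.02 and was not called. Mib1, a ubiquitin ligase that activates ligands, was lower (log2FC -0.35), and the Notch inhibitors Numbl and Numb were higher (log2FC 0.55 and 0.27), as was Poglut1, which adds glucose to the receptor (log2FC 0.18). Adjusted p-values by limma for these 4 were 0.00079, 0.0015, 0.049 and 0.021.

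In the nucleus, Rbpj, which encodes the DNA-binding partner of the receptor, measured 3270, 3131 and 3443 normalized counts in KE and 4554, 4385 and 4264 in NT. All KE values were below all NT values (log2FC -0.42, adjusted p = 0.00012 by limma). Among 5 tested target genes, Nrarp, which feeds back to limit Notch signaling, measured 227, 285 and 226 in KE and 435, 383 and 438 in NT, again without overlap (log2FC -0.77, adjusted p = 0.0003 by limma). Hey1 and Hey2 were not called, with log2FC of -0.12 and 0.26. Targets of the pathway thus differed in direction, with Hes5 and Nrarp lower and Hes1 higher.

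**Figure D5:**
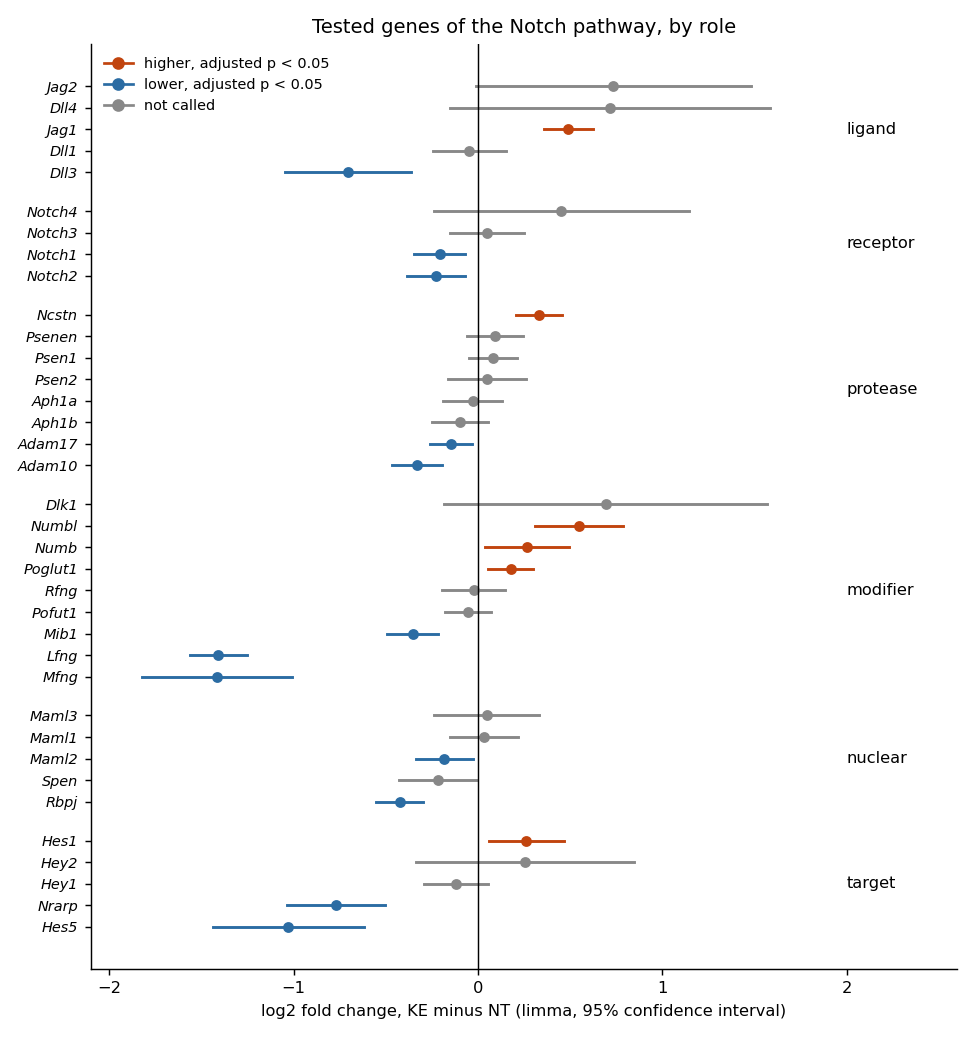
Log2 fold change, KE minus NT, with 95% confidence intervals from limma for tested Notch pathway genes (1 of the 37 is not drawn), grouped by role and colored by call. Lfng and Mfng have the lowest estimates (both -1.41), and no receptor or nuclear gene was called higher.

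Relatives of the members were examined in the same fit. Of the 4 nuclear factor I genes, Nfic was lower (log2FC -0.31, adjusted p = 0.0022 by limma) like Nfia and Nfib, and Nfix gave a log2FC of 0.05 and was not called. Of 11 SOX genes, 3 were higher and 5 lower, beside 25.3% and 26.0% of all tested genes, with a median log2FC of -0.17. The rises were those of Sox9, Sox2 and Sox4 (log2FC 0.27), the last known from neural and other progenitors. Sox3, a close relative of Sox2, fell from 1401 ± 66.5 normalized counts in NT to 676 ± 83.1 in KE (SD, n = 3, log2FC -1.06, adjusted p = 3.6e-06 by limma). The other falls were those of Sox5 (log2FC -1.10), Sox11 (-0.83), Sox10 (-0.50) and Sox8 (-0.48), of which Sox10 marks the oligodendrocyte lineage, and only Sox10 overlapped between groups.

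Among 6 tested HES and HEY genes, Hes6, which promotes neuronal differentiation, was lower besides Hes5 (log2FC -0.50, adjusted p = 0.00033 by limma), and Hes1 alone was higher. Of 9 neurogenic factors, a class that HES proteins are known to hold down, 7 were too low to be tested, 2 of them at 0 in every culture. Neurod1, which was tested, was not called (log2FC 0.49).

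Of 14 tested transcription factors and cofactors of radial glia outside the member set, 6 were higher and 3 lower, beside 25.3% and 26.0% of all tested genes, with a median log2FC of 0.15. Among the rises were those of Hopx (log2FC 1.10, 1213 ± 100 normalized counts in KE and 567 ± 41.4 in NT) and Dmrta2 (0.61). Sall3, Zic1 and Rfx4 were lower (log2FC -0.90, -0.59 and -0.47). Among 6 genes known as targets of SOX9, NFIA or RBPJ in glia, 2 were higher and 2 lower, beside 25.3% and 26.0% of all tested genes. Mmd2 and Zcchc24 were not called (log2FC 0.13 and 0.12). Gfap, the astrocyte intermediate filament gene, rose from 17292 ± 658 to 31508 ± 747 (log2FC 0.87, adjusted p = 3.8e-07 by limma), and the glutamate transporter gene Slc1a3 was higher too (log2FC 0.25). Fabp7, a fatty acid binding protein gene of radial glia that responds to Notch, fell from 112865 ± 4529 to 74197 ± 4298 (log2FC -0.61, adjusted p = 3.9e-05 by limma), and Apcdd1 had the same log2FC of -0.61.

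The genes closest to a member in their profile over the 6 cultures were found by the root mean square difference of mean-centered log2 values among 11685 genes with a mean of at least 100. For Hes5 these were Sh2d3c (0.10), Tnfrsf1b (0.14) and Rassf5 (0.14), each with its lowest NT value in NT replicate 3. For Zbtb20 they were Pcdhac2 (0.06), Pdk1 (0.09) and Gucy1a2 (0.09), and for Nfia they were N4bp2 (0.12), Bach2 (0.13) and Pcnt (0.13). The 3 genes closest to Zbtb20 and the 3 closest to Nfia all had their highest KE value in KE replicate 3. Zbtb20 itself was the closest of the other members to Nfia, at a difference of 0.19.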

How the data were processed

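RNA-seq was analysed in 3 KE and 3 NT cultures, and no culture or column was left out. The authors deposited a normalized signal per gene and culture, named as normalized counts. They were taken to be Salmon gene counts divided by DESeq2 size factors, the tools that the processing notes name, which the values do not settle. Totals (30472429 to 30895529) are alike, so they do not show sequencing depth. Per the submitters' processing notes, Trim Galore and STAR were used. These notes name GRCh38, whereas the supplemental methods name GRCm39 for mouse. The methods paragraph does not describe the astrocyte libraries separately, and it mentions batches without naming them, so none could be modelled. Only 72.7% to 75.8% of values under 30 lay within 0.1 of a whole multiple of the commonest low value, so reads were not recovered, no count test was run, and errors reflect the variation among cultures.

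For the 15280 genes averaging 10 or more, log2(value + 1) was modelled on group alone in limma 3.58.1 (R 4.3.3), using its variance trend. Tests were two-sided and adjusted by Benjamini-Hochberg over these genes. Coordinates and canonical transcripts came from Gencode vM39 on GRCm39, in which 54749 of 55357 identifiers were found. The members and gene lists were chosen with earlier results of these data known. Named were all members, called genes of the small lists, the called genes with the largest change in the Notch list (up to 3 per role and direction) and the radial glia list (up to 4 per direction), the 3 genes most like each of the 3 called members with the largest change, genes overlapping a member, and Braf. A few genes of the lists are left out of the text. Uncalled genes Dll1, Notch3, Notch4, Rfng, Hey1, Hey2, Neurod1, Nfix, Mmd2 and Zcchc24 were named after their values were seen. Alternatives were other pseudocounts, filters and scalings, no variance trend, the replicate block, and leaving out each culture. The fit was tested on simulated data for KE against NT with 15280 genes, and recovered 49.3%, 88.1% and 100% of genes changed by 0.5, 1 and 2 on the log2 scale, where 200 genes were changed, far fewer than were called in the data.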

Additional observations from a re-analysis of the deposited data

How the results depend on the processing

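Over all alternatives, 143 values of the 10 members kept their direction and call, 16 lost the call and 1 changed sign. Sox9, Nfib and Hes5 were called under all 16 alternatives, with log2FC of 0.19 to 0.49, -0.62 to -0.31 and -1.25 to -0.88. The other lost calls, beside those given with Nfia, Notch1, Hes1, Sox2 and Lhx2 above, were those of Nfia and Notch1 under scaling to housekeeping genes (adjusted p = 0.062 and 0.14 by limma) and of Nfia, Notch1 and Zbtb20 without the variance trend (0.11, 0.064 and 0.056). Pax6 changed sign under astrocyte marker scaling (-0.082), an alternative chosen after the data were seen. Between 6 and 9 members, 14 and 22 Notch pathway genes, and 6776 and 8376 of all genes were called. Of the SOX9, NFIA and RBPJ targets, 2 were called under quantile normalization instead of 4, and the cause was not tested. The log2 difference in the ratio of Nfib to Nfia ranged from -0.051 to 0.287 when each culture was left out, and its sign was reversed without KE replicate 1 (-0.037) and without NT replicate 2 (-0.051). Same-numbered cultures deviated together only weakly (r = 0.059, 0.066 and 0.065, each culture correlating best with its own number), so the numbers were not taken as pairs. With the replicate block 8046 genes were called, 7669 of them also without it, and every member kept its call. Hes5, at 109 to 305 normalized counts, has the lowest counts of the members.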
